A study of Mus musculus with 9 samples.

Results

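Actin and tubulin mRNAs were examined as 8 genes found by symbol in the authors' gene table, of 11618 genes with a transcript tag in the series. They were 2 actins (Actb and Actg1), 2 alpha-tubulins (Tuba1a and Tuba4a) and 4 beta-tubulins (Tubb2a, Tubb3, Tubb4a, listed there as Tubb4, and Tubb5). The assay was HITS-CLIP on mouse brain polyribosomes, in which ultraviolet light links a protein to the RNA it touches, the protein is precipitated, and the attached RNA fragments are sequenced as tags. FMRP, the protein missing in fragile X syndrome, was precipitated in 7 libraries, and the Hu proteins, another group of polyribosome-associated RNA-binding proteins of neurons, in 2.

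The groups were as follows. Monoclonal FMRP antibodies (7G1-1 and 2F5, mixed) were used at P14, P15 and P25, and a polyclonal FMRP antibody at P14 and P25, all by Protocol 1 (dissociation in 1% SDS) and read on the 454 platform. The polyclonal FMRP antibody was also used at P11 and P13 by Protocol 2 (2% SDS) and Illumina reading, and so was a human antiserum to Hu, on the other share of each of the same lysates. All mice were of the FVB strain and the tissue was cortex and cerebellum trimmed of white matter. The labels state no genotype for single libraries. The protocol names male wild type mice and Fmr1-null littermates, and no library label names nulls. Brains of littermates were pooled, so replicates within a group are pools of mice that differ in age. Transcript tags per library ranged from 4397 to 7713 for the 454 group and from 25873 to 49847 for the Illumina group. Levels are given as CPM, transcript tags scaled to a common library total. Taking 3 counts as the limit, 0 tags allowed up to 682 CPM at the lowest depth and 60.2 CPM at the highest. Neuronal marker genes were present in all libraries (7 of 7 with a tag, summed at 1627 to 3721 CPM with FMRP and 5604 to 9369 CPM with Hu), while 1 of 5 microglial and 3 of 4 endothelial markers had any tag.

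Actins and tubulins are the subunits of actin filaments and microtubules. Beta-actin (Actb) is used in nearly all cells, and its mRNA is known to be carried into growing axons and dendrites. Gamma-actin (Actg1) is the other cytoplasmic actin. Alpha- and beta-tubulins pair to form the microtubule wall: Tuba1a is the main alpha-tubulin of developing neurons, Tubb3 is the classic neuronal beta-tubulin, Tubb4a is abundant in the brain, oligodendrocytes included, and Tubb2a and Tubb5 are beta-tubulins of the developing brain. The coding sequences of these genes are closely alike within each family, which limits where a tag can be placed uniquely, so tag numbers of single members are uncertain.

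In the mm9 coordinates of the authors' table, Actb lies on chromosome 5 from 143664795 to 143668403 and Actg1 on chromosome 11 from 120207004 to 120209798. Tuba1a lies on chromosome 15 from 98780278 to 98783932, and Tuba4a on chromosome 1 from 75211549 to 75215828. Tubb2a lies on chromosome 13 from 34166147 to 34169855 and Tubb3 on chromosome 8 from 125935464 to 125945910. Both other beta-tubulins lie on chromosome 17, Tubb4a from 57219489 to 57227205 and Tubb5 from 35970865 to 35975177. The bounds of Tuba4a overlap those of the kinase gene Stk16 over 633 bases. Every genome tag within the bounds of a member was on 1 strand, 36 of them at Tuba4a, so that tags of the opposite strand were absent there.

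The 8 mRNAs were a small share of what FMRP bound and a larger share of what Hu bound. They held 0.142% (P11) and 0.206% (P13) of the tags in the FMRP Illumina libraries, against 1.06% (P11) and 0.770% (P13) in the Hu libraries. In the FMRP 454 libraries the share was between 0.184% and 0.296%. Summed over the 8 genes this was 1741 ± 457 CPM with FMRP on Illumina, against 9128 ± 2014 CPM with Hu (SD, n = 2 each). The ranges of the FMRP and Hu libraries did not overlap. Most of the gap was Actb, which made up 15.8% to 51.6% of the members' tags in the 7 FMRP libraries and 80.6% (P11) and 72.9% (P13) in the Hu libraries.

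**Figure D1:**
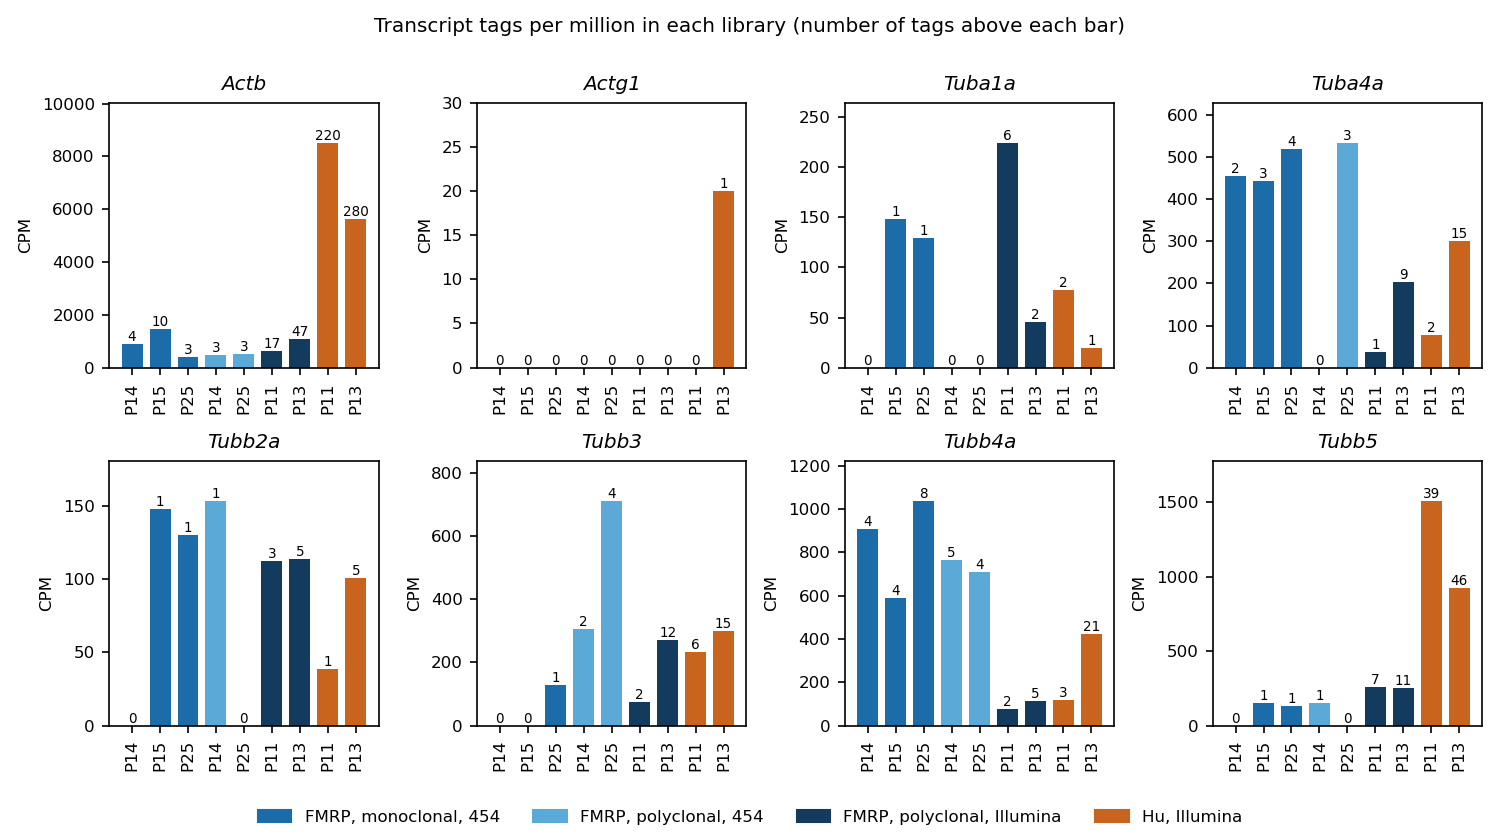
Transcript tags scaled to a common library total (CPM, linear axes from 0, a scale of its own for each gene) of the 8 genes in each of the 9 libraries, 1 bar per library, with the number of tags above it and the age below. Actb and Tubb5 were far higher in both Hu libraries than in any FMRP library, and Tubb4a was highest in the FMRP 454 libraries.

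Actb had 17 tags at P11 and 47 at P13 in the FMRP Illumina libraries, against 220 tags at P11 and 280 at P13 in the Hu libraries. In CPM, these were 634 and 1066 CPM with FMRP, against 8503 and 5617 CPM with Hu. The 5 FMRP libraries on 454 had 3 to 10 Actb tags each, or 389 to 1479 CPM, a range that includes both FMRP Illumina values. All 7 FMRP libraries thus lay below both Hu libraries. In edgeR's quasi-likelihood test over all genes of the 4 Illumina libraries, Actb was lower with FMRP by a log2 fold change of -2.72 (SE 0.61, adjusted p = 0.00539). The median gene stood at -0.16 on this scale with TMM scaling, at 0.21 with DESeq2's size factors and at -0.43 with library totals, and Actb was lower under each of them. Without the P11 FMRP library the Actb value was -1.90 (adjusted p = 0.0491), and with each tag start counted once it was -1.94 (adjusted p = 0.00602). When the 454 FMRP libraries were added, with platform as a term, it was -4.89 (adjusted p = 1.24e-06, edgeR). That fit tested 202 genes in place of 1015, and its median gene stood at 0.40. Hu was read on Illumina alone, so the added libraries gave no further contrast with Hu, and the larger value is no added support.

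Tubb5 was the other member to pass the filter on low counts (about 282 CPM in at least 2 libraries), at 7 (P11) and 11 (P13) FMRP tags, against 39 (P11) and 46 (P13) Hu tags. That was 261 and 250 CPM with FMRP, against 1507 and 923 CPM with Hu. The FMRP 454 libraries held 0 or 1 tag each. Its log2 fold change was -1.94 (SE 0.67, adjusted p = 0.0311, edgeR's quasi-likelihood test). The call did not hold in DESeq2 (adjusted p = 0.123), without the filter (0.160), or without the P11 FMRP (0.239), P13 FMRP (0.187) or P11 Hu library (0.172), while the value stayed between -2.22 and -1.43 in all alternatives that tested it.

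Both members that could be tested were called lower, where 60.9% of the 1015 genes tested were called in either direction, 27.3% lower and 33.6% higher. Actb was above the filter level in all 4 libraries; Tubb5 passed through its Hu libraries alone, so the filter set its direction. Marker lists of other cells also differed between the proteins. Astrocyte markers (5 of 5 with a tag) had 48 (P11) and 51 (P13) FMRP tags, against 2 (P11) and 12 (P13) Hu tags. Oligodendrocyte markers (5 of 5) had 4 (P11) and 102 (P13) FMRP tags, against 131 (P11) and 579 (P13) Hu tags. FMRP and Hu were precipitated from shares of the same lysates. Which cells gave the RNA bound by each protein was not tested. The other 6 members were below the filter, and for them the tags of both ages were summed and scaled for library size and TMM factors. Tubb4a had 7 FMRP tags against 24 Hu tags, a ratio of 0.381 (95% exact counting interval 0.139 to 0.912), and 21 of its Hu tags came from the P13 library. Tuba4a had 10 FMRP tags against 17 Hu tags (ratio 0.769, interval 0.315 to 1.78). For Tubb3 the numbers were 14 FMRP tags against 21 Hu tags (ratio 0.872, interval 0.410 to 1.80). Counting error alone therefore left the direction of these last pairs undetermined. Tubb2a with 8 FMRP tags against 6 Hu tags (ratio 1.74, interval 0.531 to 6.10) and Tuba1a with 8 against 3 (ratio 3.49, interval 0.837 to 20.4) had ratios above 1, again with intervals that include 1. Actg1 had 0 FMRP tags and 1 Hu tag, and no ratio is given. In the edgeR fit without a filter, which took in all 8 members, Actb alone passed (-2.83, adjusted p = 0.0125). The adjusted p of Tubb4a in that fit was 0.505 at a log2 fold change of -1.43.

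**Figure D2:**
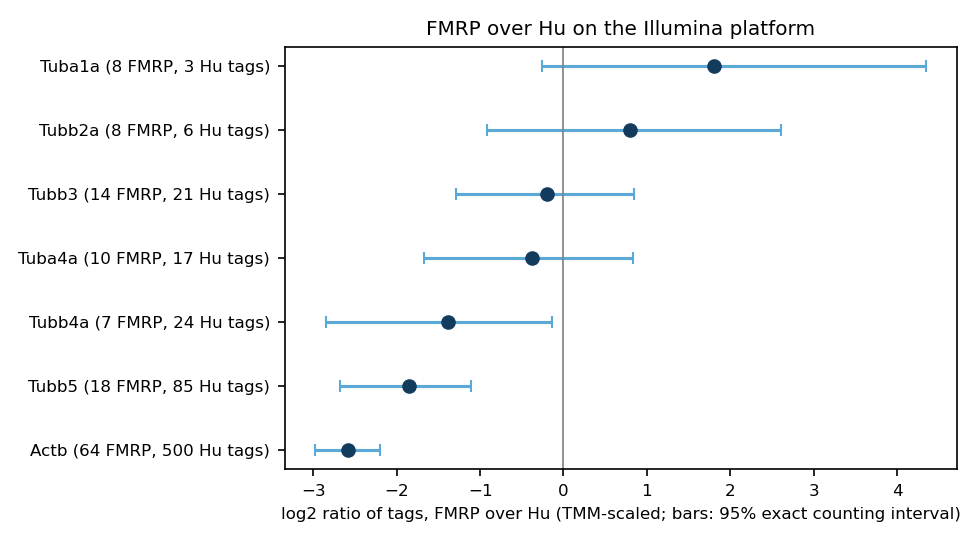
Ratio of tags, FMRP over Hu, on a log2 scale for the 7 members with tags in both, summed over the P11 and P13 Illumina libraries; points are TMM-scaled ratios and bars 95% exact counting intervals. The intervals of Actb, Tubb5 and Tubb4a lie below 0, and those of Tubb3, Tuba4a, Tubb2a and Tuba1a include 0.

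Where the tags lay along these mRNAs also differed. The measure was the share of tags whose middle fell in the final 33.3% of the listed transcript length, which is the 3′ part. With FMRP on Illumina it was 10.5% of 38 member tags at P11 (95% Wilson interval 4.17 to 24.1) and 36.3% of 91 at P13 (27.1 to 46.5), against 85.0% of 273 member tags at P11 (80.3 to 88.7) and 89.1% of 384 at P13 (85.5 to 91.8) with Hu. On 454, 5 to 25% of the members' FMRP tags lay there. All 7 FMRP libraries stood below both Hu libraries. Over all genes the share was 11.4% to 17.9% in the FMRP libraries, against 42.7% (P11) and 43.1% (P13) in the Hu libraries. Without Actb, the members' share was 19.0% (P11) and 22.7% (P13) with FMRP on Illumina, against 37.7% (P11) and 80.8% (P13) with Hu, so the size of the Hu value at P11 rested on Actb. With 2 libraries on each side no test was run on these shares.

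In Actb, whose listed transcript is 1889 nucleotides long, 470 of 500 Hu tags (94.0%) lay in the 3′ part, and the median Hu tag sat at nucleotide 1423. A single window of 100 nucleotides, from 1357 to 1457, held 223 of them (44.6%), 115 at P11 and 108 at P13. FMRP tags of Actb had a median at nucleotide 567 on 454, where 1 of 23 fell in the 3′ part and 0 in the window. The FMRP Illumina libraries differed from each other. At P13, 23 of 47 Actb tags (48.9%, interval 35.3 to 62.8) lay in the 3′ part and 10 in the Hu window, whereas at P11 the 3′ part held 0 of 17, which allows a share of up to 17.6%, and the window held 0. The P13 FMRP library was deeper (44076 tags, against 26794 at P11). It shared 0.595% of tag positions with the P13 Hu library and 0.548% with the P11 Hu library, as a share of the smaller set, whereas the P11 FMRP library shared 0.189% with the P13 and 0.228% with the P11 Hu library. The part of these values in the Actb positions was not tested.

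The tubulins with enough Hu tags had dense stretches of their own. In Tubb5 (2576 nucleotides) 39 of 85 Hu tags lay between nucleotides 1555 and 1655, and 33 of 85 lay in the final 33.3%, so most of its Hu tags stood just before that part; of 18 FMRP Illumina tags 3 were in the window, all at P13, and 0 in the final part, which allows up to 16.7%. In Tuba4a (2053 nucleotides) the window from 1514 to 1614 held 14 of 17 Hu tags and 0 of the 10 FMRP Illumina and 12 FMRP 454 tags. In Tubb3 (1723 nucleotides) 18 of 21 Hu tags lay between nucleotides 1653 and 1753, some ending up to 35 nucleotides past the listed end, and 4 of 14 FMRP Illumina tags, all from P13, lay there too. These windows were chosen where the Hu tags were densest, so the Hu share within them is a description. In Tubb4a (2228 nucleotides) 23 of 24 Hu tags were in the 3′ part and 11 of them, all from P13, between nucleotides 1892 and 1992. Tubb4a was also the member with most FMRP tags there on 454, 10 of 25 (40.0%). The 6 Hu tags of Tubb2a and the 3 of Tuba1a were all in the 3′ part, where 1 of 8 and 2 of 8 FMRP Illumina tags lay.

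**Figure D3:**
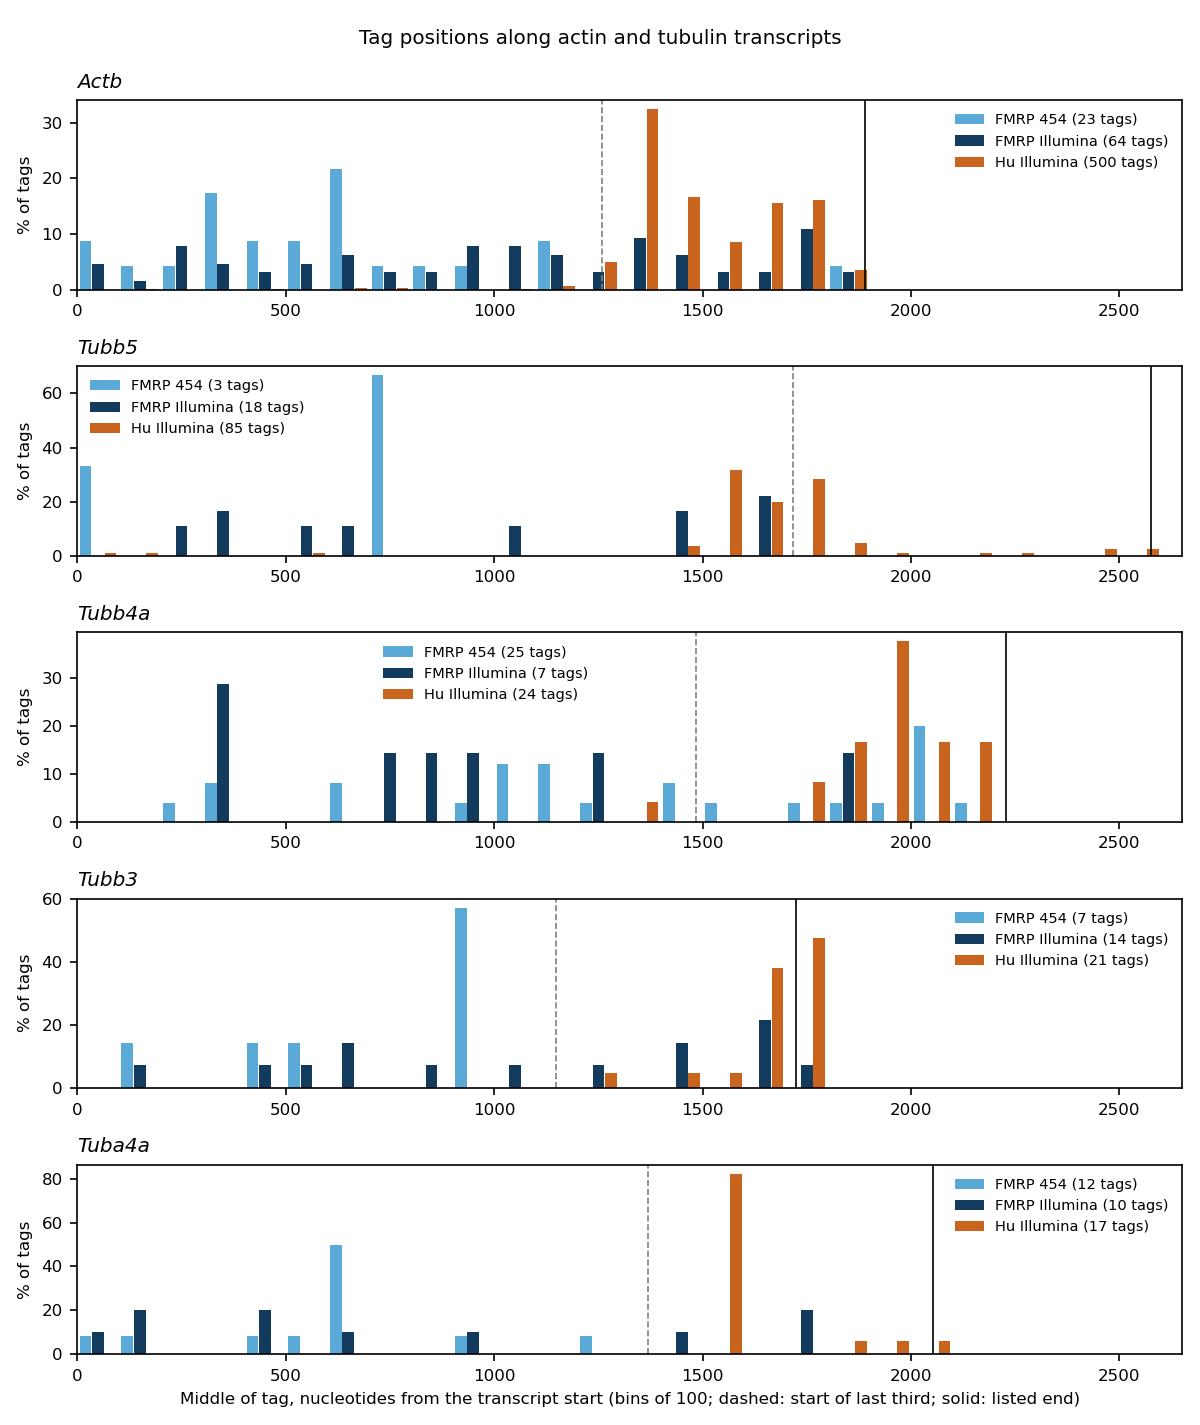
Positions of tag middles along 5 transcripts, in bins of 100 nucleotides from the transcript start, as a percent of the tags of the FMRP 454, FMRP Illumina and Hu Illumina libraries (tag numbers in the legends); the bars of a bin stand side by side, the dashed line marks the start of the final 33.3% and the solid line the listed end. Hu tags are gathered towards the 3′ side, and most FMRP tags of Actb, Tubb5 and Tuba4a lie before the dashed line.

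The authors' FMRP counts divide tags into coding and other parts of the mRNA. Over the 8 genes 78.9 ± 16.3% of FMRP tags were coding (SD, n = 7), where tags spread evenly over the length would give 64.5 ± 2.28%. The share was above the even value in 6 of 7 libraries. P11 was highest, with 30 of 30 tags coding (95% Wilson interval 88.6 to 100%), and the exception was P13, with 44 of 84 (52.4%, interval 41.8 to 62.7). Over all genes the coding share was 80.7 ± 5.73% and also lowest at P13 (68.9%). Actb had 58 of 85 tags coding (68.2%, interval 57.7 to 77.2), made up of 20 of 21 on 454 and 38 of 64 on Illumina, against a coding length of 59.7%. At P13 alone 22 of 48 Actb tags were coding, and at P11 16 of 16. Leaving out Actb gave 76.6 ± 14.6% for the other members. In 5 of 7 libraries this was above the even value of all 8 genes, which includes Actb. The table has no Hu counts and the coding bounds were not placed on the transcripts here, so a coding share for Hu is not given.

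**Figure D4:**
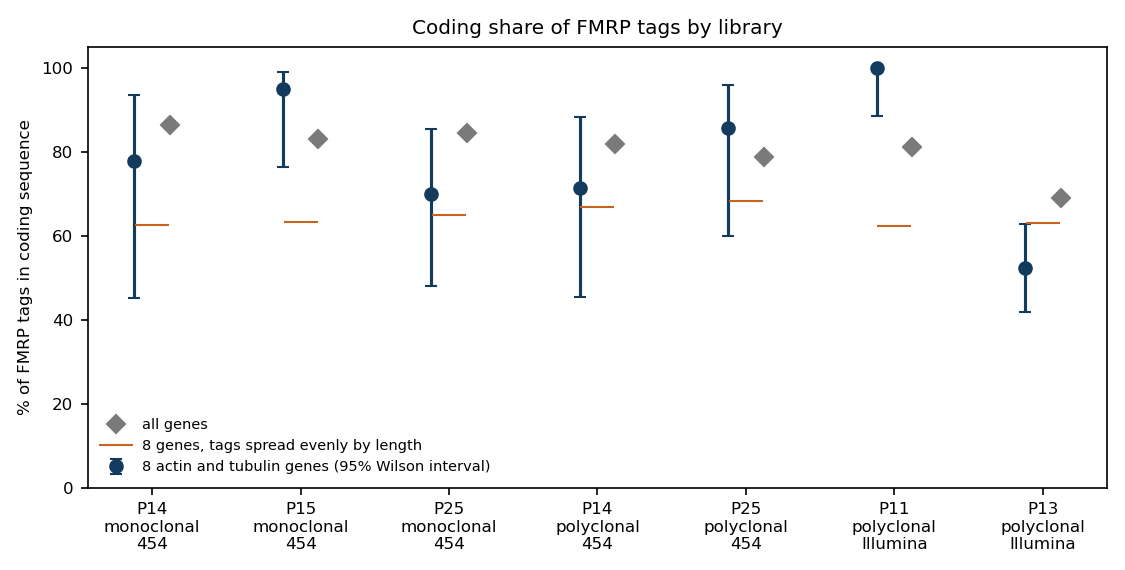
Percent of FMRP tags in coding sequence in each of the 7 FMRP libraries, from the authors' counts: points are the 8 genes with 95% Wilson intervals, diamonds all genes, and bars the percent expected if the members' tags were spread evenly by length. The members lie above the even value in every library but P13.

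Levels between genes were compared per kilobase of transcript. Among 10003 genes with a tag and a length, 7 of the 8 members were above percentile 90 for FMRP (mean of 7 libraries), where the median gene had 8.46 CPM per kb. The members' median percentile was 95.1, and 78.9 when only genes with 10 or more FMRP tags were ranked. Actb stood highest with 414 ± 208 CPM per kb (SD, n = 7), at percentile 99.9. Tubb4a followed with 269 ± 168 (99.5), Tuba4a with 153 ± 111 (98.5) and Tubb3 with 124 ± 146 (97.7). Tubb2a had 59.1 ± 41.6, Tubb5 52.2 ± 40.7 and Tuba1a 49.1 ± 56.3 CPM per kb (percentiles 92.5, 91.2 and 90.5). Neighbours in this order differed by less than their spread over the libraries, and Actg1 had 0 tags in all 7. The order differed between platforms. Tubb4a had 360 ± 78.0 CPM per kb on 454 (SD, n = 5) but 42.2 ± 12.3 on Illumina (SD, n = 2), the lowest member there but Actg1. On Illumina Actb (450 ± 162) was followed by Tubb3 (101 ± 81.1), Tubb5 (99.2 ± 3.21), Tuba1a (84.6 ± 79.4), Tubb2a (71.1 ± 0.658) and Tuba4a (58.8 ± 57.5). With Hu, Actb had 3737 ± 1080 CPM per kb (SD, n = 2), and Tubb5 was the next at 472 ± 160, above Tubb3 at 155 ± 28.3 and Tubb4a at 121 ± 96.9. Tuba4a had 92.1 ± 77.0, Tubb2a 43.8 ± 27.5, Tuba1a 30.6 ± 25.4 and Actg1 5.30 ± 7.49 CPM per kb with Hu.

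The table also lists an exon array intensity per gene as a measure of the mRNA, whose source tissue the table does not state. Of the members, Tuba1a (percentile 99.96), Tubb4a (99.7) and Actb (99.5) were among the 98 genes in the top 1%. The median of those 98 genes was 55.4 CPM per kb with FMRP (mean of 7 libraries) and 62.4 with Hu. No median was taken for each platform, so values of 1 platform or library are set beside the FMRP median of all 7 libraries. The FMRP mean of Actb was above that median on both platforms. Tubb4a was above that median on 454 and below it in both FMRP Illumina libraries (33.5 at P11 and 50.9 at P13 CPM per kb). Tuba1a had a mean of 34.9 on 454 and 84.6 on Illumina, with spreads that include it. Tubb5 (96.1), Actg1 (95.7) and Tuba4a (95.5) were also high on the array, and Tubb2a (60.2) and Tubb3 (45.9) were not. Actg1, high on the array and at 0 or 1 tag in every library, was the widest mismatch; how many of its tags were lost to Actb-like copies was not tested.

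**Figure D5:**
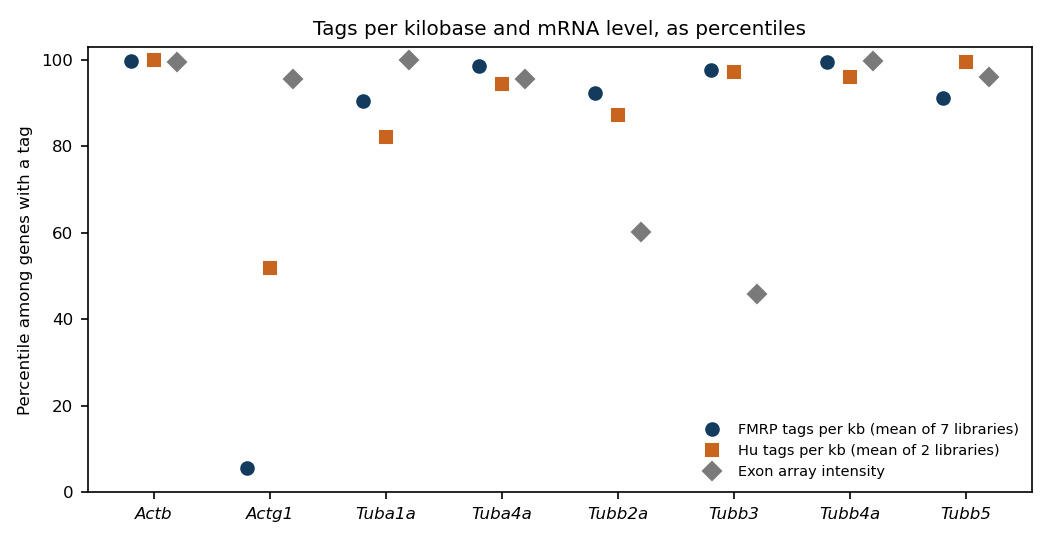
Percentile of each member among genes with a tag, for FMRP tags per kilobase (mean of 7 libraries), Hu tags per kilobase (mean of 2) and the exon array intensity. All members but Actg1 are above percentile 90 with FMRP, while Tubb2a and Tubb3 are at 60.2 and 45.9 on the array.

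The authors ranked genes by their own FMRP statistic over the 7 libraries. In the authors' deposited table Actb was at rank 236 (FDR 7.31e-06), Tubb4a at 358 (8.64e-05), Tubb3 at 722 (0.00411) and Tuba4a at 958 (0.0222). The other members in the authors' deposited table were Tubb5 at 1602 (FDR 0.34), Tuba1a at 1675 (0.42), Tubb2a at 1997 (0.843) and Actg1 at 6486. Of the 30999 lines, 1101 (3.55%) had an FDR under 0.05. These lines are not limited to the 11618 genes with a transcript tag in the series.

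Among FMRP libraries, Tubb4a was the only member called between Protocol 2 and Protocol 1, of 2 tested. With the polyclonal antibody it had 2 (P11) and 5 (P13) transcript tags by Protocol 2, against 5 (P14) and 4 (P25) by Protocol 1, from libraries several times smaller. That was 74.6 and 113 CPM by Protocol 2, against 765 and 711 CPM by Protocol 1, without overlap, and the 3 monoclonal libraries of Protocol 1 had 592 to 1037 CPM. On the authors' counts the log2 fold change was -2.74 (SE 0.25, adjusted p = 0.0160, edgeR's quasi-likelihood test). Of the 334 genes tested, 8.38% were called, 4.19% lower and 4.19% higher. Tubb4a passed the filter on low counts through its Protocol 1 libraries alone, so the filter set its direction. So few tags do not bear out an SE of 0.25. It was 0.71 on transcript tags in edgeR, 1.04 without a filter and 1.34 in DESeq2. Actb, the other member tested, had 1.67 (SE 0.78, adjusted p = 0.202). DESeq2 did not call Tubb4a (adjusted p = 0.396), nor did the fit without a filter (0.824), and the gene was not tested when a library was left out. Protocol, platform and age cannot be told apart in this comparison. Oligodendrocyte markers (5 of 5 with a tag), 1 of the cell types that use Tubb4a, summed to 149 (P11) and 2314 CPM (P13) by Protocol 2, and all FMRP libraries lay within that range; their part in the result was not tested. Across ages, fewer cells of a type and less RNA per cell cannot be told apart in such bulk samples. At P13 the Hu library had 421 Tubb4a CPM and at P11 116, with oligodendrocyte markers at 11615 and 5063 CPM.

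For antibody and age within Protocol 1, no member passed the filter, and 0 of 96 genes (0%) were called by edgeR or DESeq2 in either comparison; 3 genes (antibody) and 5 genes (age) had an unadjusted p under 0.05 in edgeR. Actb averaged 496 ± 52.4 CPM with the polyclonal antibody (SD, n = 2) and 926 ± 545 CPM with the monoclonal antibodies (SD, n = 3), a difference within their spread. Tubb3 had 6 transcript tags in the polyclonal libraries (2 at P14 and 4 at P25) and 1 in the monoclonal ones (P25). In the fit without a filter, on the authors' counts, its log2 fold change was 1.32 (SE 1.06, adjusted p = 0.752, edgeR). At P25 Tubb4a had 8 (monoclonal) and 4 (polyclonal) tags, against 4, 5 and 4 tags at P14 and P15, and in the age fit without a filter its value was 0.28 (SE 0.71, adjusted p = 0.893, edgeR). At 0 to 10 tags per member and library, differences between antibodies or ages were not detectable at this depth.

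Related genes were counted by list. The 4 further actins had 2 FMRP tags in all, against 1 Hu tag, and the 14 further tubulins had 21 FMRP tags on Illumina, against 13 Hu tags; among these tubulins only Tuba1b, an alpha-tubulin, reached 20 tags (7 FMRP Illumina, 5 FMRP 454 and 8 Hu). The 14 tubulin-folding cofactors and chaperonin subunits had 55 FMRP tags against 34 Hu tags, and none was tested. A list of regulators of actin monomers and filaments had 111 tags with FMRP on Illumina, against 588 with Hu. This list also held genes of other actin-related proteins, such as Actr1a. Of the 26 genes, 7 were tested and all 7 were lower with FMRP (27.3% of all genes tested), with a median log2 fold change of -3.00. Each had 0 to 15 FMRP tags per Illumina library and passed the filter through Hu, so the filter set their direction and their count is no independent support. These 7 held 47 FMRP tags against 443 Hu tags, and the 19 genes of the list below the filter 64 against 145. The 7 tested were the filament-severing cofilins Cfl1 (-3.78) and Cfl2 (-4.62), the monomer-binding profilins Pfn1 (-3.33) and Pfn2 (-3.00), the capping subunit Capza2 (-1.94), and the Arp2/3 subunits Actr2 (-2.59) and Actr3 (-2.47). Among the untested genes of this list with 20 or more tags in all, Arpc1a had 8 FMRP Illumina tags against 9 Hu tags. Actr1a had 8 against 7, Arpc2 8 against 13, Wdr1 7 against 12, Cap2 7 against 15 and Twf1 2 against 19. Pfn2 had 0 (P11) and 8 (P13) FMRP tags against 28 (P11) and 54 (P13) Hu tags. Of the 8 microtubule destabilisers, the tested Stmn2 (-2.31, adjusted p = 0.0878) and Stmn3 (-1.62, adjusted p = 0.0626, edgeR) did not pass; this list had 38 FMRP tags against 89 Hu tags.

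The genes whose levels over the 9 libraries were most like the members' summed level, among 605 genes with 60 or more tags, were Zfp422 (r = 0.93), Zfp780b (0.93), Tspan7 (0.93), Calm3 (0.93) and Vstm2a (0.92), where the median gene had r = 0.03. Calm3, a calmodulin gene, had 60 FMRP tags against 468 Hu tags. The points share the Hu and FMRP libraries and their depths, and the values are a description.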

How the data were processed

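Per the submitters' processing notes, tags were aligned with Novoalign to mm9, with no version given. The authors deposited, per library, lists of unique tags on the genome and on RefSeq transcripts; their value columns (read counts on 454, a score on Illumina) were not used, and 1 line was counted as 1 tag. The authors' gene table gave deposited FMRP tag counts (whole transcript and coding), lengths, mm9 bounds, an exon array intensity, and the authors' own chi-square score, p-value and FDR. Its log2 expression column, per the file headers from neurons of another study, was not used. Transcript tags were summed to 11618 genes, 9841 named from the RefSeq table (GRCm38.p6, names only), 1570 from the authors' table and 207 kept as accession. No reference sequence was used here.

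FMRP was compared with Hu on transcript tags of the 4 Illumina libraries, and antibody, age and protocol on the authors' counts, with edgeR 4.0.16 (TMM, filterByExpr, quasi-likelihood test, Benjamini-Hochberg at 0.05 over all genes tested) in R 4.3.3. The standard error is the log2 fold change over the square root of F. DESeq2 1.42.0, other scalings, no filter, other tag definitions, and leaving out each library were alternatives. The lysate was a replicate block in one of them: the series text says the P11 and P13 lysates were divided between FMRP and Hu, and deviations of same-age libraries correlated at 0.13 over 1015 genes. All 8 members are named, and genes of the related lists where they passed the test or had 20 or more tags. Genes most like the members were ranked by Pearson's r on log2(CPM + 50). The members and lists were chosen with earlier results of these data known. The scripts were tested on simulated data. Intervals cover counting error only, and p-values the spread between these pools. Figures used Python 3.11.15 with matplotlib 3.10.9.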

Additional observations from a re-analysis of the deposited data

Results flagged for a closer look

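Tubb3 in the P25 FMRP library made with the polyclonal antibody on 454 was the highest of the 7 FMRP libraries, at 711 CPM from 4 tags, where the others held 0 to 306 CPM. Counting limits the gap: 0 tags in the P14 monoclonal library allow up to 682 CPM. It was the only sample of 8 gene-wise groups tested that stood apart this way, and chance does so in about 1 of 20 groups.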

How the results depend on the processing

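For FMRP over Hu, Actb kept its direction and its call in all 13 alternatives run (log2 -1.90 to -2.77 with 1 library left out). The number of members called was 2, and 1 in DESeq2, without a filter on low counts, with the 454 FMRP libraries added under a platform term, and with the lysate block without a filter (an alternative chosen after seeing the data); leaving out a library gave 1 to 2. The Tubb5 call was lost in 6 of 12 alternatives. Genes called overall numbered 618, 146 with all 7 FMRP libraries, where 202 were tested, and 323 to 506 with 1 library left out. The lysate as a replicate block gave 2 members and 600 genes and changed no member's call (Actb -2.76, adjusted p = 0.000342; Tubb5 -1.90, adjusted p = 0.0265; edgeR). For polyclonal over monoclonal, the block on age gave 0 members and 0 genes, as did every other alternative there and for P25 over P14 and P15. No member passed the filter in these 2 comparisons, so only the fits without a filter tested the members.

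For Protocol 2 over Protocol 1, 1 member was called, and 0 in DESeq2, without a filter, and in each fit with 1 library left out. Tubb4a was not tested in the fits with 1 library left out, so they cannot show whether its call holds. Genes called overall numbered 28, and 0 in DESeq2 and 0 to 20 with 1 library left out: 1 without the P14, 2 without the P25, 20 without the P11 and 0 without the P13 library. Apart from the smaller or changed sets of genes tested, the cause was not tested. The members' Hu share in the 3′ part was 87.0%, and 82.5% with each tag start counted once; the FMRP shares and the coding share (75.4% to 83.3% with 1 library left out) moved by less than their spread. The median FMRP percentile was 95.1, 78.9 among genes with 10 or more FMRP tags, and 93.1 for coding tags over coding length. Depth limits the 454 libraries most, where members had 0 to 10 tags each.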
